A study of Mus musculus with 12 samples.

Results

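The genes described belong to the red blood cell lineage. They are *Hba-a1*, *Hba-a2*, *Hbb-b1*, *Hbb-b2* and *Hbb-bt*, coding for the adult α- and β-globin chains, and *Alas2*, *Slc4a1*, *Ahsp* and *Epb4.2*. These are 9 of the 29608 genes named on the array, and 10 of its 39429 probes. The members were chosen by gene name. *Hba-a1* and *Hba-a2* had been selected on their expression ratios between these same mice, and the others were added as erythroid genes with those results known, so that every difference between phenotypes given for the 9 genes is a description and carries no test. Of the 9 symbols, 8 stood in the files as written, and *Epb4.2* was found under its current symbol *Epb42*.

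RNA of the hippocampus came from 12 female mice in diestrus, aged about 12 weeks, and was hybridized to 6 Agilent arrays with Cy3 and Cy5. The 4 MRL/lpr mice carry the *Fas* lpr mutation on the MRL background and develop a lupus-like disease. The 4 mice labelled Fn14ko carry the same mutation together with a knockout of *Tnfrsf12a*, the receptor of the cytokine TWEAK. They were bred as littermates of the MRL/lpr mice by backcross, whereas the 4 MRL/+ mice, which share the background without the lpr mutation, were purchased as controls. Each array took 2 mice of 1 phenotype, with odd replicates in Cy3 and even ones in Cy5. A slide held only arrays of a single phenotype, so that slide and phenotype cannot be told apart. The sample descriptions also mention the cortex, although tissue and source give the hippocampus. Whether blood was cleared from the vessels before dissection is not given in the sources used here.

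The array of MRL/lpr replicates 3 and 4 stood apart. Its 2 channels had a median foreground of 1.93 and 1.73 times the local background, whereas the remaining 10 samples had 4.42 to 12.6, and 25.2% and 19.6% of its probe spots were well above background. In MRL/+ replicates 2 and 4, 29.6% and 31.8% of the spots were, against 51.5% to 68.1% in the remaining 8 samples. Levels below are multiples of the median of a channel over the 10877 spots that were valid (foreground at least 2 times background, no outlier flag) in all 12 samples. Differences are given for all 12 samples and for the 10 samples outside that array, where 4 and 7 of the 9 genes, respectively, were measured by valid spots. The *Tnfrsf12a* probe exceeded background clearly in each of the 4 mice labelled Fn14ko, with levels of 0.151 to 0.189, compared with 0.283 to 0.629 in MRL/+. On the scale of these levels, *Tnfrsf12a* differed between them by -1.45 (log2, SE 0.32, adjusted p = 0.0972 in limma), and with each channel divided by its median over all spots by -0.54 (SE 0.57, adjusted p = 0.625). The deleted part of the gene is not given in the sources used here, so the probe may lie outside it. *Fas* differed between MRL/lpr and MRL/+ by -0.99 (SE 0.68, adjusted p = 0.520) on the first of these scales and by -1.53 (SE 0.37, adjusted p = 0.0635) on the second.

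Hemoglobin is a tetramer of 2 α- and 2 β-type globin chains, each holding a heme group that binds oxygen. Globin transcripts are produced in huge amounts by erythroid precursors and persist in reticulocytes, the youngest red cells of the circulation, so that blood left in a tissue carries them into its RNA. Low globin expression has also been described in neurons and glia. In bulk tissue, fewer cells that carry a transcript and less of it per cell cannot be told apart.

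The sequences below show what the globin probes can and cannot separate, and they bear on each globin value that follows. The *Hba-a1* probe (chr11:32183955-32184014, mm9, plus strand) and the *Hbb-b2* probe, for which the files give no position, lie in coding sequence that is nearly identical between the copies of each globin, so that their signal may include the neighbouring gene.
Hba-a1 probe: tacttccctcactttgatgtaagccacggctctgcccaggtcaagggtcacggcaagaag
Hbb-b2 probe: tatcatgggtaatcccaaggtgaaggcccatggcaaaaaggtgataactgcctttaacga
The *Hbb-b1* probe (chr7:110976379-110976438, mm9, minus strand) covers the start of the transcript. Of its first 46 bases, 46 were identical in the RefSeq start region of *Hbb-bs* (GRCm38.p6), a β-globin gene of the other mouse haplotype. The probe therefore may not tell *Hbb-b1* from *Hbb-bs*, and its signal may come from either. The rest of the probe was not compared. Which of the β-globin genes these mice carry was not tested, so the values of *Hbb-b1*, *Hbb-b2* and *Hbb-bt* are those of probes with these names. Compared with *Hbb-bt*, 7 of 45 bases differed. The first 30 bases are shown, with capitals at the bases that differ from the probe.
Hbb-b1 probe: tttgcttctgacatagttgtgttgactcac
Hbb-bs: tttgcttctgacatagttgtgttgactcac
Hbb-bt: tttgcttctgaTTCTgttgtgttgactTGc

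The adult α-globin genes *Hba-a1* and *Hba-a2* were highest in MRL/lpr replicates 1 and 2. The *Hba-a1* level was 71.6, 50.7, 14.1 and 4.23 in MRL/lpr replicates 1 to 4, 17.9, 17.2, 32.2 and 9.01 in mice labelled Fn14ko, and 14.7, 19.7, 19.2 and 20.9 in MRL/+. Its highest and lowest values of all 12 mice therefore both belonged to MRL/lpr, and the other phenotypes lay between them. The *Hba-a2* level was 73.2, 64.0, 21.6 and 9.21 in MRL/lpr, 25.0, 24.1, 42.4 and 13.7 in mice labelled Fn14ko, and 24.8, 21.2, 22.8 and 30.2 in MRL/+. It followed the same order of mice within MRL/lpr and within Fn14ko. The mean level of *Hba-a1* was 35.1 ± 31.5 (SD, n = 4) in MRL/lpr, 19.1 ± 9.65 in mice labelled Fn14ko and 18.6 ± 2.69 in MRL/+, so the SD between mice of the first was nearly as large as its mean.

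**Figure D1:**
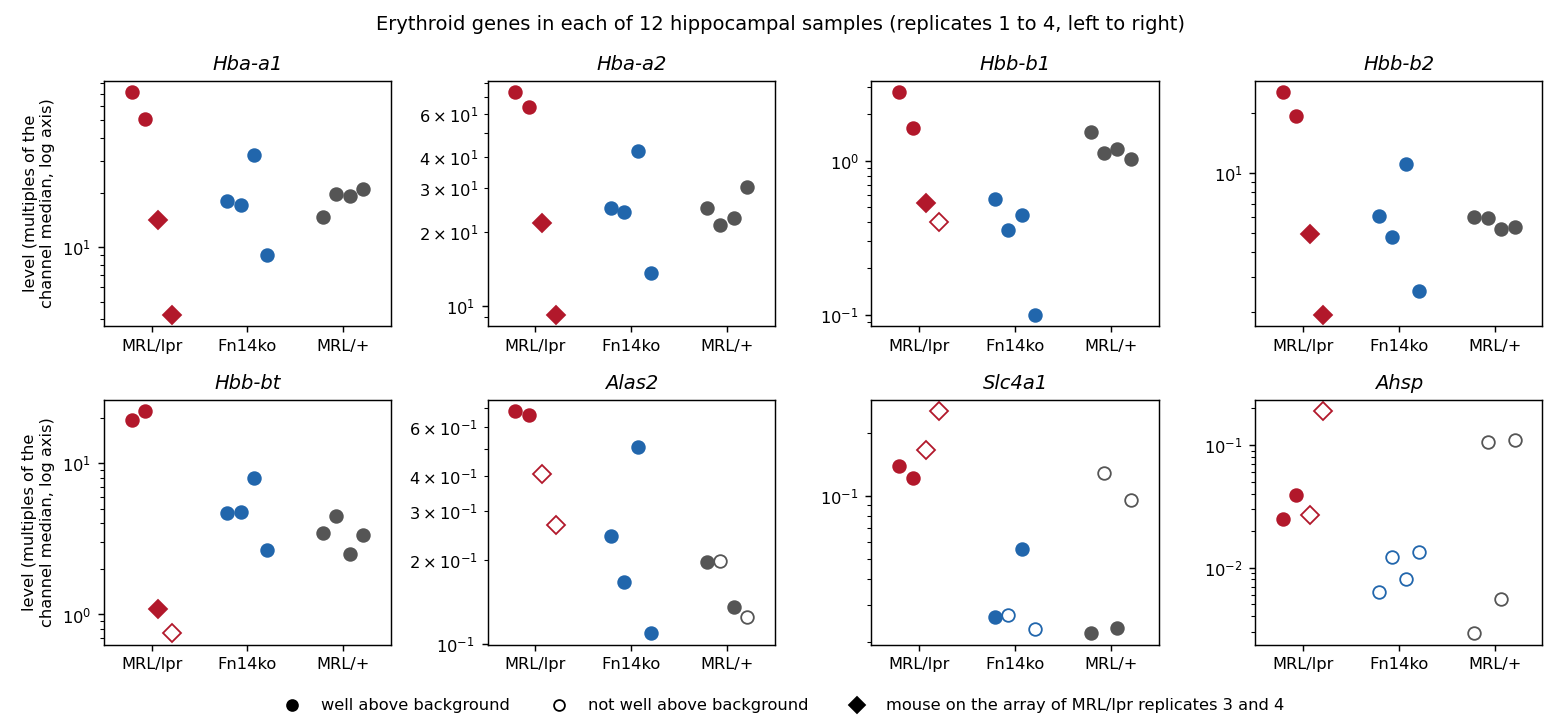
Levels of 8 erythroid genes in each of the 12 samples, as multiples of the channel median on a log axis that differs between panels, with the replicates of a phenotype from left to right; open symbols were not well above background and diamonds are the 2 mice of the dim array. *Hba-a1* ran from 71.6 to 4.23 within MRL/lpr and from 14.7 to 20.9 within MRL/+.

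The β-globin genes *Hbb-b2* and *Hbb-bt* behaved like the α-globin genes. *Hbb-b2* stood at 25.5, 19.3, 4.94 and 1.93 in MRL/lpr, at 6.05, 4.76, 11.1 and 2.55 in mice labelled Fn14ko, and at 5.97, 5.96, 5.23 and 5.38 in MRL/+. *Hbb-bt* stood at 19.3, 22.2, 1.08 and 0.750 in MRL/lpr, at 4.71, 4.77, 8.03 and 2.67 in mice labelled Fn14ko, and at 3.46, 4.47, 2.496 and 3.33 in MRL/+. For both genes MRL/lpr replicates 1 and 2 were above every other mouse and replicates 3 and 4 were below all MRL/+ mice, although *Hbb-bt* was not well above background in replicate 4. *Hbb-b1*, also not well above background in that mouse, differed in its order. It stood at 2.79, 1.63, 0.532 and 0.398 in MRL/lpr, at 0.568, 0.356, 0.443 and 0.100 in mice labelled Fn14ko, and at 1.53, 1.12, 1.19 and 1.03 in MRL/+. On this scale every mouse labelled Fn14ko was below every MRL/+ mouse, whereas the other globin genes overlapped between these phenotypes.

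*Alas2* codes for the erythroid form of 5-aminolevulinate synthase, the first and rate-limiting enzyme of heme synthesis. Its level was 0.686, 0.661, 0.407 and 0.266 in MRL/lpr, 0.243, 0.166, 0.508 and 0.109 in mice labelled Fn14ko, and 0.196, 0.199, 0.135 and 0.125 in MRL/+. All 4 MRL/lpr mice were above all 4 MRL/+ mice on this scale, but MRL/lpr replicates 3 and 4 and MRL/+ replicates 2 and 4 were not well above background, and the groups overlapped when each channel was divided by the median of all its spots. *Slc4a1* codes for band 3, the anion exchanger of the red cell membrane. It was well above background in MRL/lpr replicates 1 and 2, with levels of 0.138 and 0.122, in Fn14ko replicates 1 and 3, with 0.027 and 0.056, and in MRL/+ replicates 1 and 3, with 0.022 and 0.023. The remaining values were 0.166 and 0.255 in MRL/lpr, 0.027 and 0.023 in mice labelled Fn14ko, and 0.128 and 0.096 in MRL/+. These last pairs were not well above background, and in MRL/lpr and MRL/+ they came from the dimmest channels.

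*Ahsp* codes for the α-hemoglobin stabilizing protein, a chaperone of free α chains, and was well above background in 2 of the 12 samples, MRL/lpr replicates 1 and 2, at 0.025 and 0.039. In no mouse of the other phenotypes, and in neither of the dim MRL/lpr replicates 3 and 4, was its spot well above background, so no fold is given. In MRL/+ replicates 2 and 4 the spot was valid, at 0.106 and 0.110, higher than in MRL/lpr replicates 1 and 2. It was also valid in Fn14ko replicates 2, 3 and 4, at 0.012, 0.008 and 0.013. *Epb4.2*, the gene of protein 4.2 that binds band 3 to the membrane skeleton, has 2 probes, and neither was well above background in any sample.

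The differences of *Hba-a1*, *Hba-a2*, *Hbb-b2* and *Hbb-bt* between MRL/lpr and the other phenotypes were small beside their errors in all 12 samples and large without the dim array. Over all 12 samples, the difference between MRL/lpr and MRL/+ was 0.22 (log2, SE 0.72) for *Hba-a1*, 0.34 (SE 0.58) for *Hba-a2*, 0.56 (SE 0.68) for *Hbb-b2* and 0.36 (SE 0.99) for *Hbb-bt*. None of these 4 was larger than its SE. Against mice labelled Fn14ko the same genes differed by 0.32, 0.35, 0.63 and -0.12, with the same SEs, and mice labelled Fn14ko against MRL/+ by -0.09, -0.01, -0.07 and 0.48. *Hbb-b1*, *Alas2* and *Slc4a1*, for which dim spots had to be kept, differed by -0.29 (SE 0.55), 1.56 (SE 0.42) and 1.70 (SE 0.65) between MRL/lpr and MRL/+ on the scale of the levels above. Between MRL/lpr and mice labelled Fn14ko they differed by 1.69, 1.12 and 2.395 on that scale, with the same SEs. With each channel divided by its median over all spots, dim ones included, the differences were -0.82 (SE 0.90), 1.02 (SE 0.68) and 1.16 (SE 0.41), and 0.23, -0.34 and 0.94, so the sign of the *Alas2* difference between MRL/lpr and mice labelled Fn14ko depended on the scale. In the same comparison, the *Hbb-b1* difference was larger than its SE only on the scale of the levels. Without the dim array the same differences were 1.87 (SE 0.32), 1.64 (SE 0.30), 2.14 (SE 0.32) and 2.79 (SE 0.32), which is 3.65-fold for *Hba-a1* and 6.89-fold for *Hbb-bt*, and *Alas2* differed by 2.24 (SE 0.38). Against mice labelled Fn14ko, the differences of MRL/lpr without that array were 1.71 (SE 0.32) for *Hba-a1*, 1.41 (SE 0.30) for *Hba-a2*, 1.97 (SE 0.32) for *Hbb-b2*, 2.06 (SE 0.32) for *Hbb-bt*, 1.54 (SE 0.38) for *Alas2* and 2.70 (SE 0.40) for *Hbb-b1*, which differed by 0.98 (SE 0.40) from MRL/+. *Slc4a1* differed by 1.53 and 1.97 (SE 0.60) from MRL/+ and from mice labelled Fn14ko. These comparisons rest on 2 MRL/lpr mice that shared an array, and both use them. The median over all 17936 genes was -0.10 and -0.04 in the same comparisons.

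**Figure D2:**
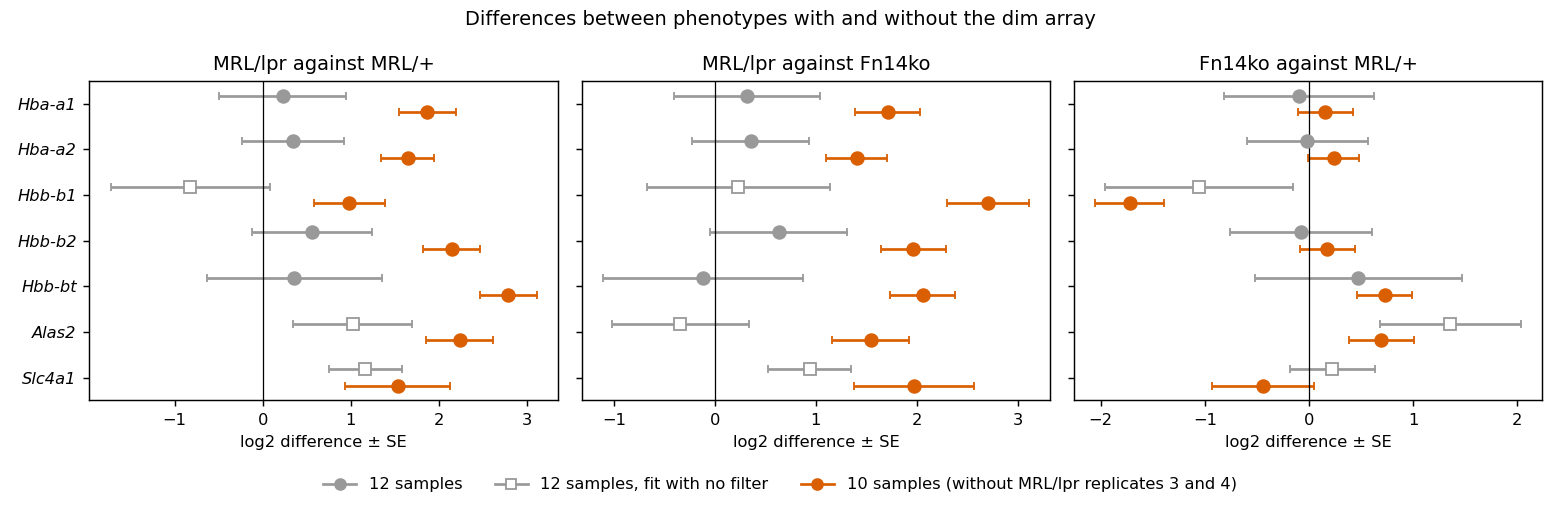
Log2 difference ± SE of 7 erythroid genes in the 3 comparisons, for all 12 samples (grey; open squares where dim spots were kept) and for the 10 samples without MRL/lpr replicates 3 and 4 (orange). *Hbb-bt* moved from 0.36 to 2.79 between MRL/lpr and MRL/+ when the dim array was left out, and *Hbb-b1* lay below 0 between Fn14ko and MRL/+ in both.

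With the 10 samples, 5 of the 7 measured members passed an adjusted p of 0.05 in limma between MRL/lpr and MRL/+, beside 15.7% of all genes, and 6 of 7 between MRL/lpr and mice labelled Fn14ko, beside 9.12%. Between mice labelled Fn14ko and MRL/+ it was 1 of 7, *Hbb-b1*, beside 21.1%. The members were chosen with these contrasts known, so nothing is read from the counts. On the scale of the levels above, both mice of the MRL/lpr array with replicates 1 and 2 were above all 8 mice of the other phenotypes for 6 of the 7 measured members. These are the 5 globin genes and *Alas2*. On the scale of the 10 samples *Slc4a1* joined them, which makes 7 of 7, beside 6.00% of the 17936 genes counted on that scale. Among the 6, on the scale of the levels, the gap was widest for *Hbb-bt*, where the lower of the pair was 2.41 times the highest of the 8 others. It was narrowest for *Hbb-b1*, at 1.06 times.

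*Hbb-b1* was lower in mice labelled Fn14ko than in MRL/+. Without the dim array, which holds no mouse of either phenotype, its difference was -1.72 (log2, SE 0.33), and the groups did not overlap, as for 9.10% of the 17936 genes, counted in that direction. The other 4 globin genes overlapped. They differed by 0.16 (SE 0.26) for *Hba-a1*, 0.24 (SE 0.25) for *Hba-a2*, 0.18 (SE 0.26) for *Hbb-b2* and 0.73 (SE 0.26) for *Hbb-bt*. Only the difference of *Hbb-bt* was larger than its SE. Over the 12 samples the 4 genes differed by -0.09, -0.01, -0.07 and 0.48, so the sign for *Hba-a1*, *Hba-a2* and *Hbb-b2* depended on the scale. Over 12 samples with dim spots kept, where each channel was divided by the median of all its spots, the *Hbb-b1* difference was -1.06 (SE 0.90) and the groups overlapped. Within a sample, the signal of the *Hbb-b1* probe over that of *Hbb-b2* was 0.094, 0.075, 0.040 and 0.039 in mice labelled Fn14ko and 0.257, 0.188, 0.228 and 0.192 in MRL/+, without overlap. In MRL/lpr it was 0.109, 0.084, 0.108 and 0.206, and the first 3 of these were below all MRL/+ mice, whereas replicate 4 was measured by a spot not well above background. The ratio of *Hba-a1* to *Hba-a2* overlapped between all phenotypes, with means of 0.720 ± 0.219, 0.712 ± 0.041 and 0.764 ± 0.15 (SD, n = 4) in MRL/lpr, Fn14ko and MRL/+.

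**Figure D3:**
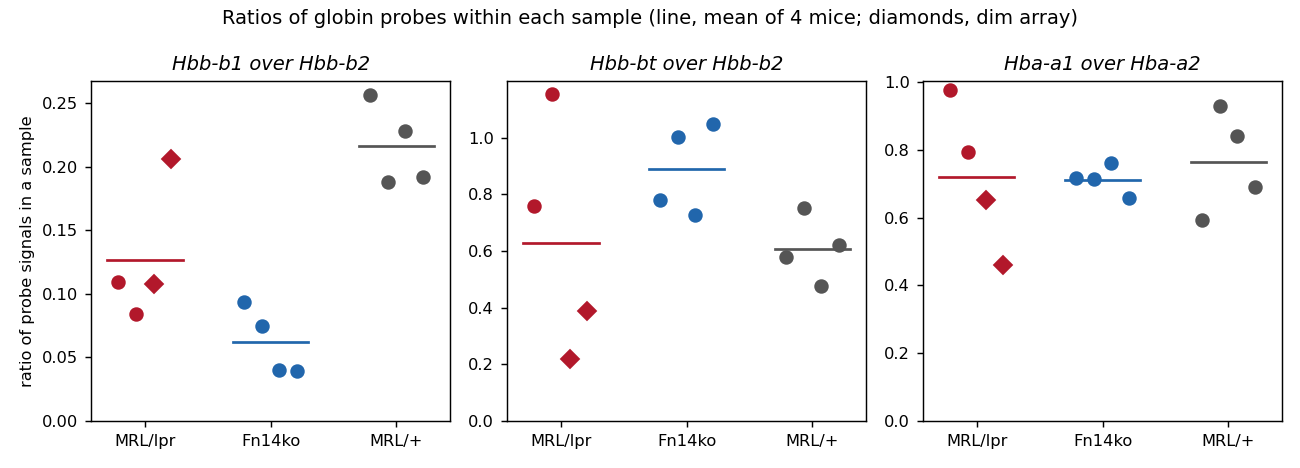
Ratio of the signals of 2 globin probes in each sample on a linear axis from 0, with a line at the mean of 4 mice and diamonds for the dim array. The *Hbb-b1* to *Hbb-b2* ratio ran from 0.039 to 0.094 in mice labelled Fn14ko and from 0.188 to 0.257 in MRL/+, whereas *Hba-a1* to *Hba-a2* overlapped in all phenotypes.

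The members also differed between mice of 1 phenotype that shared an array, where slide and phenotype are the same. On the array of Fn14ko replicates 3 and 4, replicate 3 was higher for all 7 measured members. The ratio of replicate 3 to replicate 4 was 4.75-fold for *Alas2*, 4.53-fold for *Hbb-b1*, 4.43-fold for *Hbb-b2*, 3.64-fold for *Hba-a1*, 3.16-fold for *Hba-a2*, 3.07-fold for *Hbb-bt* and 2.46-fold for *Slc4a1*. Of the 17936 genes, 9 had a larger ratio than *Alas2* and 52 a larger one than *Slc4a1*, while the median over all genes was -0.07 (log2). On the MRL/lpr array with replicates 3 and 4, replicate 3 was 3.33-fold higher for *Hba-a1*, 2.56-fold for *Hbb-b2*, 2.35-fold for *Hba-a2* and 1.44-fold for *Hbb-bt*, and none of the 8864 genes measured there had a larger ratio than *Hba-a1*. On the other 4 arrays, the ratio of the odd to the even replicate lay between -0.20 and 0.95 (log2) for the globin genes and *Alas2*. *Slc4a1* was lower in the odd replicate on both MRL/+ arrays, by -2.04 and -1.68, where the even one was not well above background. Since 1 mouse was in each dye, a difference between mice and one between dyes cannot be told apart on a single array.

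**Figure D4:**
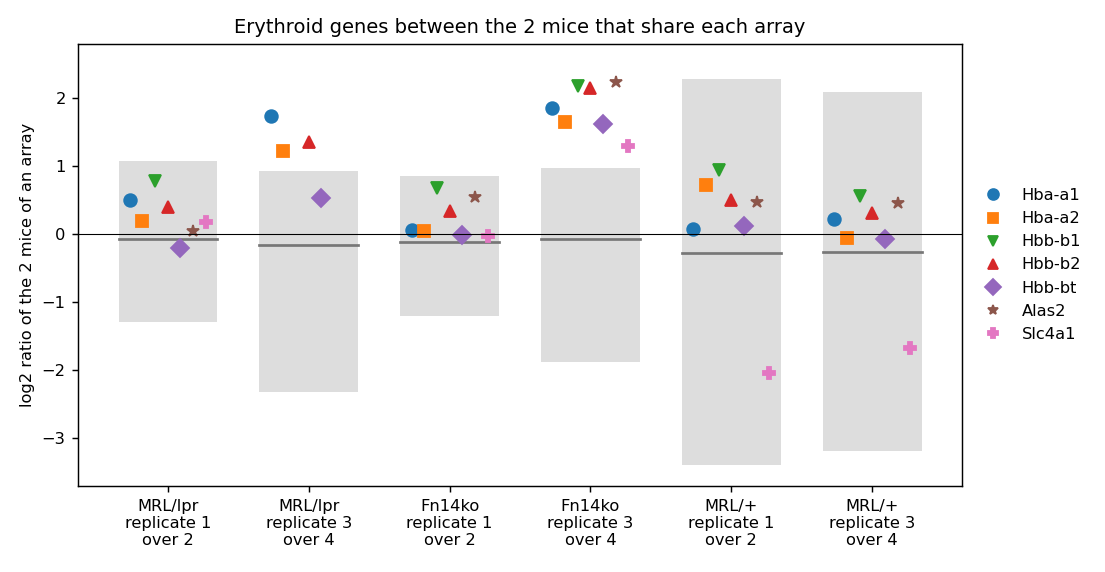
Log2 ratio of the 2 mice of each array for 7 erythroid genes (4 on the dim array), over bars from the 1st to the 99th percentile of all genes with a line at their median. All 7 genes lay above the bar on the array of Fn14ko replicates 3 and 4, with *Alas2* at 2.25 and *Slc4a1* at 1.30, and 3 globin genes did on that of MRL/lpr replicates 3 and 4.

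The 5 globin genes varied together. Over the 10 samples, after subtracting phenotype and dye effects, their 10 pairs correlated with r between 0.57 and 0.96, and all 21 pairs of the 7 measured members with r between 0.25 and 0.97. Pairs of samples share an array, and these values describe the 10 samples and carry no test. Among the 17929 genes that are no members, the levels most like the mean of the globin genes in this sense were those of *Rdh12*, a retinol dehydrogenase, with r of 0.98, *Tmem158* with 0.95, an unnamed transcript of probe A_55_P1987993 with 0.95, *Hcn2*, a pacemaker channel of neurons, with 0.94, and *Carm1*, an arginine methyltransferase, with 0.94. None of the 5 is in the erythroid lists.

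Genes of the same pathway outside the members passed the test in both directions, in shares near or below those of all genes where such a share is given. They were taken from lists of other globins, heme synthesis, the red cell membrane, erythroid regulators, red cell enzymes, and iron handling with hemoglobin clearance. The lists held 92 genes, of which 91 were on the array and 43 had a spot valid in all 12 samples. Between MRL/lpr and MRL/+, 2 of the 43 rose and 2 fell (limma, Benjamini-Hochberg adjusted p of 0.05), beside 9.17% of the 8864 genes called in either direction, with a median difference of 0.06 against -0.01 over all genes. Between MRL/lpr and mice labelled Fn14ko 1 rose and 0 fell, beside 3.98% of all genes, with a median of 0.09 against 0.03. Between mice labelled Fn14ko and MRL/+ limma called 0 of the 43, beside 0.519% of all genes, with a median of -0.11 against -0.16. The other 48 genes were too dim for that filter. In the fit over all 29608 genes with no filter, 0, 5 and 0 of them passed in the 3 comparisons, beside 0.993%, 12.8% and 0% of all genes. At an unadjusted p of 0.05, limma had 22, 36 and 13 of the 91 genes, for which no share of all genes is given. In the 10 samples, 67 of the genes were measured, and 4 rose and 5 fell between MRL/lpr and MRL/+, 2 rose and 1 fell between MRL/lpr and mice labelled Fn14ko, and 8 rose and 5 fell between mice labelled Fn14ko and MRL/+, beside 15.7%, 9.12% and 21.1% of all genes called in either direction. With the dim genes of the fit with no filter, the 10 samples gave 20, 6 and 22 of the 91. For these counts too no share of all genes is given, so nothing is read from them. Both mice of an array were treated as independent in these fits. With the array as a random block over the 12 samples, where the estimated correlation within an array was 0.71, limma called 7, 4 and 0 of the 8864 genes in the 3 comparisons and 0 of the pathway genes, whose lowest adjusted p was 0.240, 0.225 and 0.857. Each pathway call over the 12 samples named below is therefore lost with that block.

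Of the red cell membrane genes, *Gypc*, coding for glycophorin C, was higher in MRL/lpr than in MRL/+ by 2.19 (log2, SE 0.58, adjusted p = 0.0403 in limma), and *Epb41*, coding for the skeleton protein 4.1, by 1.12 (SE 0.26, adjusted p = 0.0294). In both genes the 4 MRL/lpr mice were above the 4 MRL/+ mice, which gives the smallest two-sided exact permutation p of 0.0286, and in 10 samples the differences were 1.12 and 1.22. However, both genes were above background in only 2 of 4 MRL/+ mice, and *Epb41* in 3 of 4 MRL/lpr mice. With the array as a random block, their adjusted p in limma was 0.268 and 0.294. *Epb41* was also higher in mice labelled Fn14ko than in MRL/+ by 1.18 (SE 0.26), with an adjusted p of 0.0726. *Tmod1*, the actin-capping tropomodulin, was lower in MRL/lpr than in mice labelled Fn14ko by -2.72 (SE 0.65, adjusted p = 0.0245), but was above background in 2 of 4 MRL/lpr mice, and its adjusted p was 0.0747 in the 10 samples and 0.262 with the block. *Gypc* and *Epb41* are also expressed outside the red cell lineage.

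Among the erythroid regulators, *Zfpm1*, the GATA1 cofactor FOG1, was lower in MRL/lpr than in MRL/+ by -1.38 (log2, SE 0.30, adjusted p = 0.022 in limma), without overlap, and by -0.73 (adjusted p = 0.0247) in the 10 samples, with an adjusted p of 0.269 with the array as a random block. *Zbtb7a*, a repressor of fetal globin, was lower in MRL/lpr than in mice labelled Fn14ko by -2.52 (SE 0.71, adjusted p = 0.0408), above background in 2 of 4 MRL/lpr mice, and by -0.59 with an adjusted p of 0.0701 in the 10 samples (0.262 with the block). Between mice labelled Fn14ko and MRL/+ the lowest p of this list belonged to *Bcl11a*, another globin repressor, with -0.80 (SE 0.23, adjusted p = 0.129).

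Of the heme synthesis genes, *Ppox*, coding for protoporphyrinogen oxidase, was lower in MRL/lpr than in mice labelled Fn14ko by -1.48 (log2, SE 0.45, adjusted p = 0.048 in limma), above background in 2 of 4 MRL/lpr mice, and its adjusted p was 0.796 in the 10 samples and 0.265 with the array as a random block. The others with the lowest p did not pass, with 2.05 (SE 0.62, adjusted p = 0.0586) for *Cpox*, coding for coproporphyrinogen oxidase, between MRL/lpr and MRL/+, and 1.84 (SE 0.56, adjusted p = 0.562) for *Uros*, coding for uroporphyrinogen III synthase, between mice labelled Fn14ko and MRL/+. None of the other globins passed in the 12 samples. In the 10 samples with no filter, the embryonic *Hba-x*, *Hbb-y* and *Hbb-bh1* were called lower in MRL/lpr than in MRL/+, by -2.82, -1.61 and -1.001 (log2, adjusted p = 0.00142, 0.0159 and 0.0322 in limma), but none was above background in any MRL/lpr mouse, and only *Hbb-bh1* was in 1 MRL/+ mouse. All 3 were also called between mice labelled Fn14ko and MRL/+ (adjusted p = 0.0498, 0.0282 and 0.0199), and *Hba-x* between MRL/lpr and mice labelled Fn14ko (adjusted p = 0.0484). In the 12 samples, the lowest p belonged to the neural and tissue globins *Cygb* (-0.32, SE 0.28, adjusted p = 0.396, MRL/lpr against MRL/+) and *Ngb* (-1.35, SE 0.51, adjusted p = 0.0741, MRL/lpr against mice labelled Fn14ko), and to the embryonic *Hbb-bh1*, which was above background in 1 of the 4 MRL/+ mice and in 0 of the 4 labelled Fn14ko (adjusted p = 0.562).

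Catalase (*Cat*), which breaks down hydrogen peroxide in red cells and most other cells, was higher in MRL/lpr than in mice labelled Fn14ko by 0.87 (log2, SE 0.22, adjusted p = 0.0454 in limma), without overlap, and lower in the latter than in MRL/+ by -0.99 (SE 0.22, adjusted p = 0.0688). Without the dim array both differences passed, with 0.88 (adjusted p = 0.0121) and -1.04 (adjusted p = 0.00195). With the array as a random block over all 12, the first had an adjusted p of 0.282 in limma. Between MRL/lpr and MRL/+ the lowest p of the red cell enzymes was that of carbonic anhydrase 2 (*Car2*), with 0.98 (SE 0.33, adjusted p = 0.074).

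Of the genes of iron handling and hemoglobin clearance, *Lrp1*, whose product takes up heme bound to hemopexin, was lower in MRL/lpr than in MRL/+ by -2.33 (log2, SE 0.59, adjusted p = 0.0351 in limma), without overlap, and by -0.88 (adjusted p = 0.0122) in the 10 samples, with an adjusted p of 0.240 with the array as a random block. *Hamp*, the gene of the iron hormone hepcidin, was above background in MRL/lpr replicates 1 and 2 and in no other mouse, and was called higher in MRL/lpr than in mice labelled Fn14ko (adjusted p = 0.013 in limma, 0.225 with the block). The exact permutation p for *Hamp* was 0.0857, and no fold is given because 2 of the 4 MRL/lpr values were not above background. *Slc40a1*, coding for the iron exporter ferroportin, was lower by -1.89 (SE 0.56, adjusted p = 0.0459) in the same comparison, and by -0.23 with an adjusted p of 0.587 in the 10 samples (0.262 with the block). Between mice labelled Fn14ko and MRL/+ the lowest p was that of *Hfe*, the hemochromatosis gene, with 0.96 (SE 0.44, adjusted p = 0.57).

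Markers of other blood cells were compared with the members in the same samples. On the array of Fn14ko replicates 3 and 4, where the median of the 7 measured members was 1.86 (log2, replicate 3 over 4), it was -0.56 over 5 neutrophil markers, 0.17 over 5 platelet markers, -0.42 over 6 lymphocyte markers and 0.49 over 11 endothelial markers. The pathway lists had medians between -0.34 and 0.22 there. The genes with the largest ratios on that array, named after their values were seen, included *Lrrc10b* at 9.42-fold, the adenosine receptor gene *Adora2a* at 5.26-fold and *Rgs9* at 4.49-fold. Of the marker genes, both MRL/lpr replicates 1 and 2 were well above background and above all 8 mice of the other phenotypes for 1 of 10 platelet markers (*Ppbp*), 0 of 10 neutrophil, 0 of 11 lymphocyte, 0 of 12 endothelial, 5 of 12 choroid plexus (*Ttr*, *Kl*, *Folr1*, *Clic6* and *Otx2*) and 5 of 10 hippocampal neuron markers (*Prox1*, *Neurod6*, *Zbtb20*, *Spink8* and *Lct*). That rule also used values of the other mice that were not well above background. The neutrophil markers *Ltf* and *Ngp* and the platelet marker *Gp1ba* were well above background in both these MRL/lpr mice and in no MRL/+ mouse. *Ltf* stood at 0.170 and 0.310 in MRL/lpr replicates 1 and 2, and missed the count against 0.179 in MRL/+ replicate 2. *Elane* and *S100a9* were well above background in mice of all phenotypes. No share of all genes under this rule is given.

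**Figure D5:**
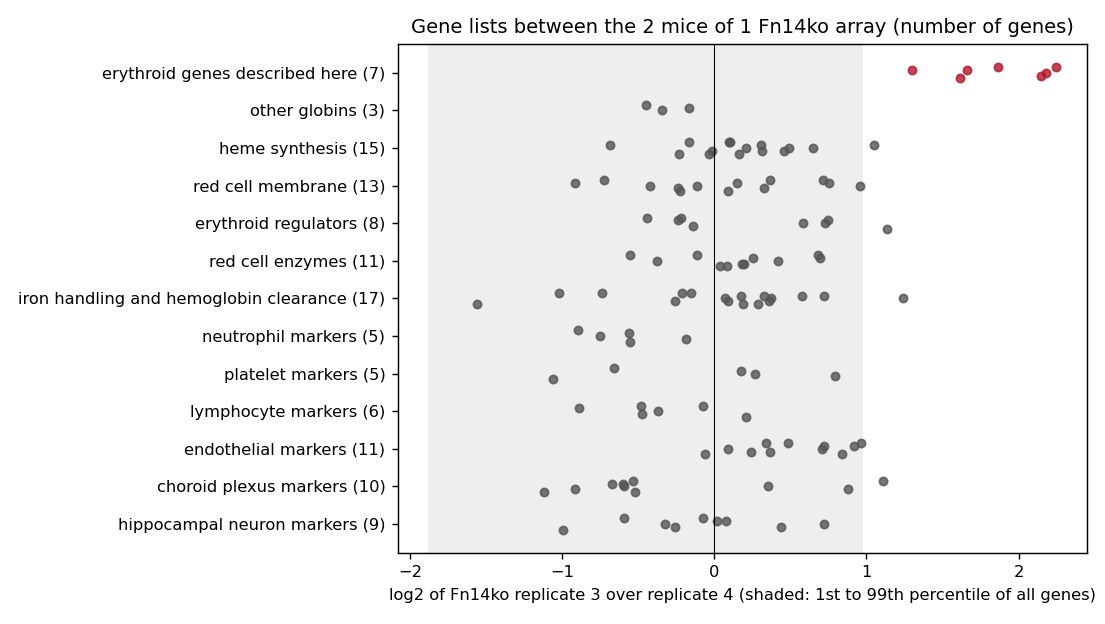
Log2 ratio of Fn14ko replicate 3 to replicate 4 for each gene of the lists measured in the 10 samples, with the number of genes in brackets and the 1st to 99th percentile of all genes shaded. The 7 erythroid genes lay between 1.30 and 2.25, and the neutrophil markers all lay below 0.

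The summed level of the choroid plexus markers was 11 to 57.6 in MRL/lpr, 7.10 to 12.2 in mice labelled Fn14ko and 8.69 to 9.95 in MRL/+, and that of the hippocampal neuron markers 10.7 to 22.3, 11.1 to 16.2 and 13.9 to 18.3. Those of neutrophils summed to 1.75 to 6.90, 0.625 to 1.02 and 1.26 to 3.34, those of platelets to 0.668 to 3.12, 0.349 to 0.467 and 0.467 to 1.78, those of lymphocytes to 1.44 to 6.87, 0.812 to 1.13 and 1.53 to 3.98, and those of endothelium to 7.48 to 13.3, 14.3 to 18.2 and 11.1 to 18.7, in the same order. Between MRL/lpr and MRL/+ limma called 1 of the 5 choroid plexus markers measured in all 12 samples, *Ttr*, higher by 3.33 (log2, SE 0.88, adjusted p = 0.0399, or 0.303 with the array as a random block), and 6 of 10 in the 10 samples. The *Ttr* level was 33.4, 10.03, 2.13 and 15.2 in MRL/lpr, 4.61, 0.663, 0.627 and 0.297 in mice labelled Fn14ko, and 0.94, 1.498, 0.754 and 0.997 in MRL/+. Limma also called 3 of the 10 neuron markers higher and 1 of the 10 platelet markers lower in that comparison, and 0 of the neutrophil, lymphocyte and endothelial markers (at an unadjusted p of 0.05 it had 3, 1 and 2 of these). The highest sums of the 3 blood cell lists came from MRL/lpr replicates 3 and 4, where 0 to 1 platelet, 1 neutrophil and 4 to 5 lymphocyte markers were well above background. *Cd3g*, *Ms4a1* and *Mmp8* were well above background in 0 of the 12 samples. The part of these cell types in the globin differences was not tested.

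The start regions of the members show what the adult globin genes and *Alas2* share in sequence. The RefSeq table of promoters (GRCm38.p6) held 5 of the 9 members. The windows of *Hba-a1* and *Hba-a2* shared a run of 297 of 300 bases, so that 1 of them is shown. The 250 bases before the start were searched on both strands for GATA (bound by GATA1), CACCC (bound by KLF1), CCAAT and TATAA, which 53.6%, 52.0%, 33.8% and 22.8% of 32851 promoter windows hold. Matches are in capitals, and overlapping ones run together.
Hba-a1, chr11:32283422-32283671, plus strand: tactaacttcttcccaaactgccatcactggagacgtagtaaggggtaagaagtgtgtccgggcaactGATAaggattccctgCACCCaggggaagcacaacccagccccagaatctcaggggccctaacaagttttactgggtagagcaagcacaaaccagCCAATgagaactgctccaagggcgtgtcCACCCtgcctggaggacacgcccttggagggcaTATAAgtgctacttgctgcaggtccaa
Hbb-bt, chr7:103813924-103814173, minus strand: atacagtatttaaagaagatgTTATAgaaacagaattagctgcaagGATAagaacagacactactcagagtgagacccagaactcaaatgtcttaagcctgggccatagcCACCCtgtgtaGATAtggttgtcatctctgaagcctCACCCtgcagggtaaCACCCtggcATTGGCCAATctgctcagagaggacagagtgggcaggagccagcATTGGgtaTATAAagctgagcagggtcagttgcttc
Alas2, chrX:150547167-150547416, plus strand: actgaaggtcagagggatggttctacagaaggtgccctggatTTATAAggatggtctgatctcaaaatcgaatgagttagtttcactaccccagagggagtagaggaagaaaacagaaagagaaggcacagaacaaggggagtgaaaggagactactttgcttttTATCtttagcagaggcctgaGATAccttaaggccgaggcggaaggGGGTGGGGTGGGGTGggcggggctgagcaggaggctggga
The window of *Hba-a1* held 1 GATA, 2 CACCC, 1 CCAAT and 1 TATAA match, that of *Hbb-bt* 2, 3, 3 and 2, and that of *Alas2* 2, 3, 0 and 2, which is a description of letters and not of binding. The window of *Epb42*, which was not above background here, held 1 GATA and 1 TATAA match and 0 of the other motifs. *Hbb-b1*, *Hbb-b2*, *Slc4a1* and *Ahsp* are named only.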

How the data were processed

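RNA of the hippocampus was labelled with Cy3 or Cy5 and hybridized to 60-base Agilent probes. The authors scanned the arrays with Agilent Feature Extraction, and the deposited values are an intensity per spot and dye on a linear scale, not normalized between channels, with flags for outliers and for spots well above background. Local background was subtracted here. A spot counted as valid when its foreground reached 2 times background and no outlier flag was set. Channels were then scaled to a median of 1 over the 10877 spots valid in all 12 samples, and replicate spots, then the probes that share a gene name, were averaged before taking logs. The fit for 10 samples used 25621 spots and its own median, so its levels are on another scale. Genes with no valid spot were fitted with no filter, with each channel divided by the median of all its probe spots and a floor of 1% of it. No probe spot was saturated.

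Linear models of log2 values were fitted in R 4.3.3 by limma 3.58.1 (eBayes with an intensity trend), all samples in 1 fit, dye as a covariate, Benjamini-Hochberg over all genes of the fit, threshold 0.05. The fit was tested on simulated data with independent samples, so that test does not cover the correlation between the 2 mice of an array. For named genes that are no members a two-sided exact permutation test of 4 against 4 mice was added, whose smallest p is 0.0286. Mice are separate animals, but 2 share each array, and arrays are nested in phenotype. Outside the fits with a random block, p-values therefore measure a spread in which mice and arrays are mixed. The members, lists and tests were chosen with earlier results of these data known. Named are the members, up to 3 genes of each list past the threshold per comparison or else the one with the lowest p, *Fas*, *Tnfrsf12a*, and the 5 genes most like the globin mean, and other genes only where the text says so or as members of a marker list. Probe positions are those of the files, in mm9, and promoter sequences are from RefSeq (GRCm38.p6). Of the lists, *Hbb-bs* was not found on the array. Alternatives covered filters, background correction, normalization, dye, blocks, weights, the methods' t-test and leaving out samples or the array of MRL/lpr replicates 3 and 4. Python 3.11.15 and matplotlib 3.10.9 were used for sequences and figures, and statmod 1.5.0 for the random block.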

Additional observations from a re-analysis of the deposited data

Results flagged for a closer look

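In 3 of 30 groups of 4 mice and 1 probe, the highest mouse was separated from the next by more of the group's range than Dixon's critical value allows. Chance gives this in about 1 in 20 groups. *Slc4a1* had a level of 0.056 in Fn14ko replicate 3 against 0.027 for the next mouse, in the mouse whose *Hba-a1* level was also the highest of that phenotype. *Ahsp* was at 0.191 in MRL/lpr replicate 4 against 0.039, and 1 of the 2 *Epb4.2* probes at 0.101 in the same sample against 0.014. Neither of these spots was well above background.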

How the results depend on the processing

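The count of pathway genes past the threshold was 4 for MRL/lpr against MRL/+, 6 for MRL/lpr against mice labelled Fn14ko and 0 for the latter against MRL/+, and the first and second changed under most alternatives, while the third stayed at 0 under most. In the first comparison it was 0 with no filter, 8 with the processed signal, 7 with normexp, 1 with quantile normalization, 20 without the array of MRL/lpr replicates 3 and 4, 0 with the array as a random block, 42 with array weights, whose estimation stopped before convergence, and 0 with the methods' t-test after Benjamini-Hochberg adjustment. In the second it was 19 with the processed signal, 1 with normexp, 0 with quantile normalization, 0 without the dye term, 0 with the random block, 38 with array weights, and 15 with the methods' t-test before and 0 after adjustment. In the third it was 1 with spots well above background in all samples, 1 with the processed signal, 22 without that array, 66 with array weights, 8 with the unadjusted methods' t-test, and 1 with no filter on the scale of the spots valid in all 12 samples, which was chosen after seeing the data. Leaving out 1 mouse gave 0 to 20, 0 to 46 and 0 to 1 genes. Without the array of MRL/lpr replicates 3 and 4 and with the array as a random block, chosen after seeing the data, it was 38, 19 and 39, with an estimated correlation of -0.26 within an array. That fit called 5135, 2847 and 6412 of all its 17936 genes, and the pathway counts also take in genes too dim for it. The other alternatives of this paragraph are given without a share of all genes, so nothing is read from the size of their counts. In the second comparison the count was 46 without MRL/lpr replicate 2 and 31 without replicate 1. With a replicate block the counts were 3, 3 and 0. The deviations of same-numbered mice correlated with r between -0.40 and 0.50, so the numbers do not pair the mice.

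The mean difference of the 5 globin genes was 0.13, 0.28 and -0.15 (log2) in the 3 comparisons, with an SD of 1.24 between mice of a phenotype. It was -0.30, -0.88 and 0.58 with no filter. Leaving out 1 mouse gave -0.56 to 0.85, -0.41 to 1.00 and -0.33 to 0.12, so its sign rested on single mice. Without the array of MRL/lpr replicates 3 and 4 it was 1.88 and 1.97 for MRL/lpr against MRL/+ and against mice labelled Fn14ko, with or without the array as a random block, and 1.60 and 2.06 with array weights. Without that array and with scalings chosen after seeing the data, it was 1.68 and 2.00 with the processed signal, 2.12 and 2.34 with normexp, and 1.91 and 2.11 with quantile normalization. *Hbb-b1* was lower in mice labelled Fn14ko than in MRL/+ under all 27 alternatives run, those leaving out a mouse included, by -1.97 to -0.68 over them. Several of these cannot move this difference, because both phenotypes are balanced over the dyes. They are those that leave out an MRL/lpr mouse, drop the dye term or add a replicate or array block. The count of 27 is therefore no measure of how firm the difference is. The cause of these changes was not tested. The limit of the dim genes is signal over background.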
